A study of Mus musculus with 15 samples.

Results

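The 10 genes described here encode matricellular and dedifferentiation-associated matrix proteins: *Fn1*, *Tnc*, *Postn*, *Tgfbi*, *Thbs1*, *Thbs2*, *Fbn1*, *Fbn2*, *Lox* and *Loxl2*. They were taken by name, and each matched 1 Entrez gene ID among the 24134 genes of both count tables. All 10 passed the filter on low counts in both tables. The cells were primary articular chondrocytes of ICR mice aged 4 to 5 days, used at passage 0. In the siRNA set they received control siRNA (siCtrl) or siRNAs against *Tnks* and *Tnks2* together (siTnks/2), at a time after transfection that is not given in the sources used here. In the drug set they were kept for 108 h in DMSO, in 10 μM XAV939 or in 10 μM IWR-1. XAV939 and IWR-1 are small molecules that inhibit both tankyrases, the poly(ADP-ribose) polymerases encoded by *Tnks* and *Tnks2*. There were 3 libraries in each of the 5 groups, and the siRNA and drug sets were separate tables with their own controls.

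Chondrocytes in cartilage secrete a matrix of type II collagen and aggrecan. When they are cultured on plastic they can dedifferentiate, and then make more of the type I collagen, fibronectin and other proteins of a fibroblast's matrix. Matricellular proteins are secreted into the matrix and act on cell adhesion and on growth factors more than as structural elements, while fibrillins build microfibrils and lysyl oxidases cross-link collagen and elastin.

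The comparison of each treatment with its own control asked how these genes stood when tankyrase was lowered or inhibited. In bulk RNA, fewer cells of a type and less RNA per cell cannot be told apart. With IWR-1, *Lox* fell 4.66-fold, *Fbn2* 3.90-fold, *Fbn1* 1.72-fold, *Loxl2* 1.68-fold and *Thbs2* 1.5-fold, while *Tgfbi* rose 3.24-fold and *Postn* 2.50-fold. With XAV939 the same 2 genes rose and *Lox*, *Fbn2*, *Loxl2*, *Fbn1* and *Thbs1* fell. With siTnks/2, *Postn* rose 4.18-fold and *Thbs1* fell 1.94-fold, and no other gene of the 10 passed the test without a replicate block. With the block, *Tnc* (lower) and *Thbs2* (higher) also passed the test with siTnks/2. Under it *Tnc* and *Thbs2* (both lower) also passed the test with XAV939, and *Tnc* (lower) with IWR-1. *Fn1*, the most abundant of them, passed it in none of the 3 comparisons.

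Depth and labels were checked first. Library totals lay between 26857070 and 36615194 counts. *Tnks* was at 69.0, 58.4 and 70.1 CPM (counts relative to the library total, scaled by the trimmed mean of M values) in the siCtrl libraries and at 19.5, 12.7 and 24.0 in the siTnks/2 libraries. *Tnks2* was at 118, 119.6 and 115 CPM against 58.2, 44.9 and 61.2, so both targeted genes were lower in every siTnks/2 library. All 12 chondrocyte markers passed the filter in both sets, and their summed level was 26790.2 CPM or more in each library. Of 12 leukocyte, 8 endothelial and 10 muscle markers, 3 to 5, 2 and 3 passed it. The leukocyte antigen gene *Ptprc* was at 0.157 CPM or less everywhere. Other leukocyte markers were detected, with *Cd14* at a mean of 27.4 CPM in DMSO and 5.41 in siCtrl. *Cd68* was at 8.66 and 2.67 CPM in the same groups. The siTnks/2 replicate 2 library differed from the other libraries in its endothelial markers, which summed to 10.1 CPM there and to 3.14 CPM or less in each other library.

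Among the 10 genes, *Postn* rose in every comparison with a control, *Tgfbi* rose with both drugs, and *Fbn1* fell with both. Their promoters are shown so that these regulated genes can be read as sequence. They are RefSeq windows of build GRCm38.p6 from 250 bases before to 50 bases after an annotated start, and 5 of the 10 genes had a window in the table used. *Postn* has 2 windows, and the one shown, which has the later start, is chr3:54360857-54361156 on the plus strand, the *Tgfbi* window chr13:56609336-56609635 on the plus strand and the *Fbn1* window chr2:125506389-125506688 on the minus strand, each written 5′ to 3′ along its gene. Capitals mark a TATA box (TATAAA) or a SMAD box (CAGAC), on either strand.
Postn: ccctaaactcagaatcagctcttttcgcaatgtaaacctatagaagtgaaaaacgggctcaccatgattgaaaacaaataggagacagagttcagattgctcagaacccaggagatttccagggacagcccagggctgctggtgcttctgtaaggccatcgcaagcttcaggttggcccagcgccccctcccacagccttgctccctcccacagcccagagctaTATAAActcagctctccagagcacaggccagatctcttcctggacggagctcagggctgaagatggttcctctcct
Tgfbi: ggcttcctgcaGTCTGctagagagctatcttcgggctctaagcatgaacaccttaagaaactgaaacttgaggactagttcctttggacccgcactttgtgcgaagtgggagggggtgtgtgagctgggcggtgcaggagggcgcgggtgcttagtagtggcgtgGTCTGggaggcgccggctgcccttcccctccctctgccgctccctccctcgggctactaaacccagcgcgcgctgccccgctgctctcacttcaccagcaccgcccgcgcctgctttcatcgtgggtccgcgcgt
Fbn1: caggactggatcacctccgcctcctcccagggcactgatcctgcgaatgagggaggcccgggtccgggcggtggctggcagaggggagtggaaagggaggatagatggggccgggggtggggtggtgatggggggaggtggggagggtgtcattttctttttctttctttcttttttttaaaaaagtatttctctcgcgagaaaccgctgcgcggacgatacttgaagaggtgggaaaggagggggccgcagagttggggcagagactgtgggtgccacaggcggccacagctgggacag

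The *Postn* window shown held a TATAAA match at position -26 from the start site, a sequence present in 13.6% of the 32851 windows in the table. The other *Postn* window, chr3:54359017-54359316, held no TATAAA and 1 CAGAC at position -191. The *Tgfbi* window held CAGAC on the minus strand at positions -239 and -85, and 49.6% of windows hold it. The *Fbn1* window held none of the motifs searched. In the 7 windows of *Postn*, *Tgfbi*, *Fbn1*, *Tnc* and *Thbs2*, none held an AP-1 site (TGANTCA, in 7.81% of windows), a TEAD site (GGAATG, 14.7%) or a TCF/LEF site (CTTTGA, 16.0%). These letters are matches in a window and were not measured as binding sites. Windows of *Fn1*, *Thbs1*, *Loxl2*, *Lox* and *Fbn2* were not used here.

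In the DMSO control the 10 genes covered a wide range. Per kb of exon, the mean level in DMSO was 2163 ± 302 CPM for *Fn1*, 1003 ± 124 for *Lox*, 371 ± 54.1 for *Thbs1* and 235 ± 30.6 for *Loxl2* (SD, n = 3). Lower down the order came *Tnc* at 64.5 ± 26.9, *Thbs2* at 52.0 ± 6.13, *Fbn1* at 38.1 ± 6.29, *Tgfbi* at 26.9 ± 2.57, *Fbn2* at 8.66 ± 0.808 and *Postn* at 1.29 ± 0.435 CPM per kb. The 1 SD interval of *Tnc* overlapped those of *Thbs2* and *Fbn1*, and no other neighbours in this order overlapped. *Fn1* alone took 2.09 to 2.98% of the counts of the DMSO libraries and 3.70 to 4.36% of those of the siCtrl libraries.

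The controls of the sets stood at different levels. *Thbs1* was at 1949 ± 113 CPM per kb in siCtrl and at 371 ± 54.1 in DMSO, and *Lox* at 249 ± 40.7 against 1003 ± 124. *Tgfbi* was at 66.6 ± 22.8 against 26.9 ± 2.57 CPM per kb, and *Postn* at 0.415 ± 0.217 against 1.29 ± 0.435. Table, transfection and vehicle all differ between these groups and cannot be told apart, so each treatment was set only against its own control.

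**Figure D1:**
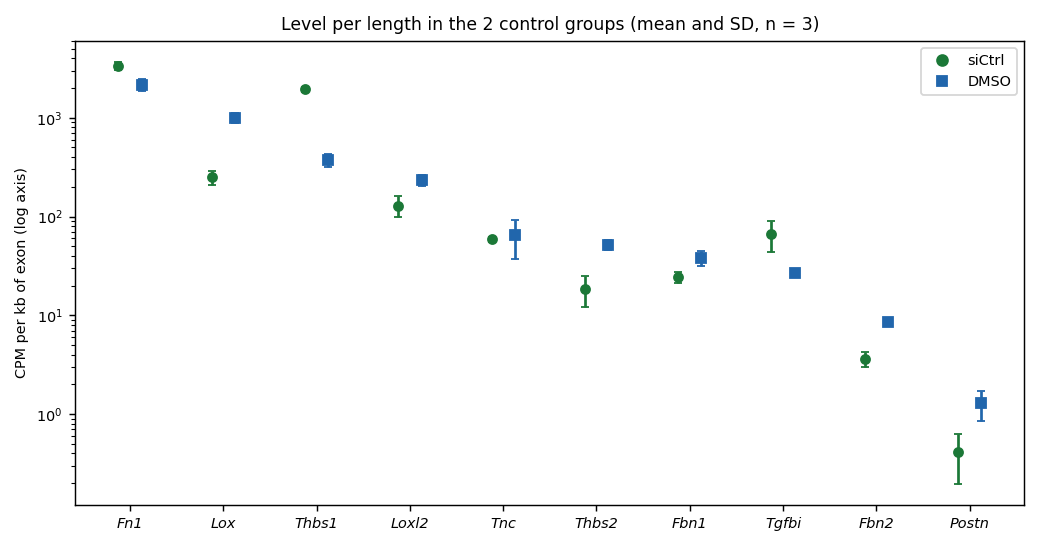
Mean level per length (CPM per kb of exon, log axis) of the 10 genes in siCtrl (circles) and DMSO (squares), with SD bars over 3 libraries, ordered by the DMSO mean. In DMSO, Fn1 leads at 2163 CPM per kb and Postn is lowest at 1.29; Thbs1 and Tgfbi are higher in siCtrl, and Lox and Loxl2 lower.

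*Fn1* encodes fibronectin, a scaffold on which cells assemble other matrix proteins (chr1:71585520-71653200, minus strand). It was at 35621, 43301 and 38358 CPM in siCtrl and at 29970.2, 38041 and 34237 in siTnks/2. The DMSO libraries held 24635, 22109 and 29081 CPM, those with XAV939 16849, 24123 and 21242, and those with IWR-1 24218, 23797 and 29653. Treated and control libraries overlapped in all 3 comparisons. Within pairs of the same replicate number, the log2 difference was -0.25, -0.19 and -0.16 with siTnks/2. With XAV939 it was -0.55, 0.13 and -0.45, and with IWR-1 -0.02, 0.11 and 0.03. *Fn1* was not called with the replicate block either. The log2 fold change was -0.20 (95% interval -0.58 to 0.18) with siTnks/2, -0.29 (-0.70 to 0.13) with XAV939 and 0.03 (-0.38 to 0.45) with IWR-1, and none passed edgeR's quasi-likelihood test (Benjamini-Hochberg adjusted p = 0.417, 0.323 and 0.906). Changes of the size of the other genes' falls with IWR-1, such as that of *Loxl2* (log2 fold change -0.75), lie outside the last interval.

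*Tnc* encodes tenascin-C, an anti-adhesive matricellular protein found in injured and remodelling tissue (chr4:63959785-64047015, minus strand). It stood at 432, 484 and 462 CPM in siCtrl and at 269.6, 166 and 366 in siTnks/2, so the groups did not overlap. In the drug set it was at 398, 364 and 741 CPM in DMSO, 241, 279.9 and 378 with XAV939, and 319, 296 and 401 with IWR-1. DMSO replicate 3 was the highest of the 9 libraries, and both drug groups overlapped the DMSO group. The log2 fold changes of -0.78, -0.74 and -0.57 (SE 0.26 each) did not pass the edgeR quasi-likelihood test (Benjamini-Hochberg adjusted p = 0.075, 0.0772 and 0.12). With the replicate number as a block they were -0.85, -0.70 and -0.51, and all passed it (edgeR adjusted p = 0.0347, 0.00154 and 0.00579).

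*Postn* and *Tgfbi* encode periostin and the TGF-beta-induced protein, both secreted adhesion proteins with fasciclin domains. Both genes are also on a list of genes raised in osteoarthritic cartilage that the study used. *Postn* (chr3:54361109-54391037, plus strand) was at 3.51, 1.77 and 5.54 CPM in siCtrl and 16.8, 7.09 and 21.8 in siTnks/2. DMSO libraries held 8.57, 9.60 and 15.6 CPM of it, XAV939 libraries 24.5, 24.9 and 28.9, and IWR-1 libraries 26.3, 26.6 and 31.4. Every treated library was above every library of its own control. The log2 fold change was 2.06 (SE 0.51) with siTnks/2, 1.22 (SE 0.20) with XAV939 and 1.32 (SE 0.20) with IWR-1, and all passed the edgeR quasi-likelihood test (Benjamini-Hochberg adjusted p = 0.0352, 0.00248 and 0.000462). Even so *Postn* stayed the least abundant of the 10 per kb in all groups except IWR-1, where *Fbn2* was lower (2.22 against 3.23 CPM per kb). The siTnks/2 call of *Postn* was lost without any 1 of 5 libraries (siCtrl replicates 1, 2 and 3, siTnks/2 replicates 1 and 3), where the log2 fold change was 1.71 to 2.51 and the edgeR adjusted p 0.0592 to 0.115. Within pairs of the same replicate number, the log2 difference in *Postn* was 2.25, 2.00 and 1.98 with siTnks/2, closer together than its levels in the libraries.

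*Tgfbi* (chr13:56609523-56639562, plus strand) rose with both drugs. Its level in DMSO was 91.7, 102 and 111 CPM, against 149.6, 179.6 and 148 with XAV939 and 356, 302 and 329 with IWR-1. The 3 drug-set groups did not overlap. The log2 fold change was 0.65 (SE 0.12) with XAV939 and 1.70 (SE 0.12) with IWR-1 (edgeR, Benjamini-Hochberg adjusted p = 0.0042 and 4.5e-06). In the siRNA set it was at 202, 350.4 and 202 CPM in siCtrl and at 188, 331 and 226 in siTnks/2, and replicate 2 was the highest of both groups. The log2 fold change there was -0.02, with a 95% interval of -0.68 to 0.65.

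**Figure D2:**
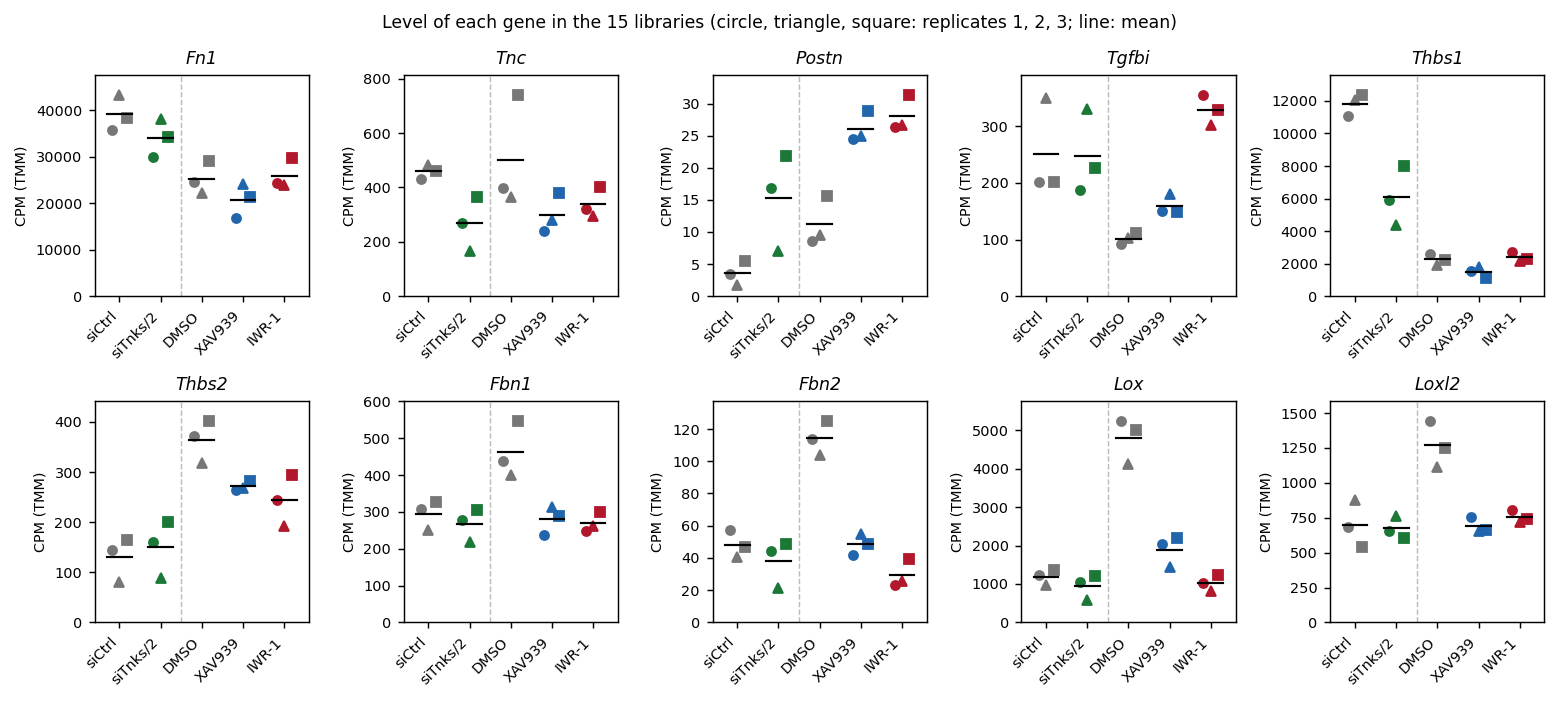
Level of each of the 10 genes (CPM, scaled by the trimmed mean of M values) in the 15 libraries, by group; circles, triangles and squares are replicates 1, 2 and 3, the line is the group mean, and the dashed line parts the siRNA set from the drug set. Postn is higher in all treated groups, Lox falls from a mean of 4793 CPM in DMSO to 1029 with IWR-1, and Thbs1 is lower in siTnks/2 and XAV939 but not in IWR-1.

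*Thbs1* and *Thbs2* encode thrombospondins, matricellular proteins that inhibit angiogenesis, and thrombospondin-1 can also activate latent TGF-beta. *Thbs1* (chr2:118111876-118127133, plus strand) was at 11064, 12049 and 12387 CPM in siCtrl and at 5896, 4372 and 8031 in siTnks/2. DMSO libraries held 2587, 1931 and 2237 CPM, XAV939 libraries 1540, 1772 and 1134, and IWR-1 libraries 2742, 2147 and 2267. Every siTnks/2 and every XAV939 library lay below its controls, and the IWR-1 and DMSO libraries overlapped. The log2 fold change was -0.96 (SE 0.22) with siTnks/2 and -0.60 (SE 0.18) with XAV939, and both passed the edgeR quasi-likelihood test (Benjamini-Hochberg adjusted p = 0.0284 and 0.0458). With IWR-1 it was 0.08 (95% interval -0.32 to 0.49). The siTnks/2 call was lost without siCtrl replicate 1, 2 or 3 or siTnks/2 replicate 1 (log2 fold change -1 to -0.92, edgeR adjusted p 0.0811 to 0.0913). The XAV939 call was lost without any 1 of 7 of the 9 drug-set libraries, all but replicate 2 of DMSO and of XAV939 (log2 fold change -0.63 to -0.46, edgeR adjusted p 0.0527 to 0.163).

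*Thbs2* (chr17:14665500-14694235, minus strand) was lower with both drugs and passed the test with IWR-1. Levels were 372, 318 and 402 CPM in DMSO, 265, 268 and 282 with XAV939 and 244, 193 and 294 with IWR-1, so all treated libraries lay below all DMSO libraries. The log2 fold change was -0.58 (SE 0.15) with IWR-1, which passed edgeR's test (Benjamini-Hochberg adjusted p = 0.0113), and -0.42 (SE 0.15) with XAV939, which did not (adjusted p = 0.0771). With the replicate block the latter was -0.41 and passed (edgeR adjusted p = 0.0111). In the siRNA set *Thbs2* was at 145, 80.2 and 165 CPM in siCtrl and at 161, 87.9 and 200.4 in siTnks/2, overlapping groups in which each siTnks/2 library was above the siCtrl library of its number. Its log2 fold change there was 0.20 (95% interval -0.63 to 1.03), and 0.19 with the block, which passed (edgeR adjusted p = 0.0352).

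*Fbn1* and *Fbn2* encode fibrillins, the backbone of microfibrils, which carry elastin and hold latent TGF-beta in the matrix. *Fbn1* (chr2:125300594-125507993, minus strand) was at 439.6, 399 and 547 CPM in DMSO, 237, 314 and 290 with XAV939 and 247, 261 and 300.2 with IWR-1. *Fbn2* (chr18:58008623-58210487, minus strand) was at 114, 104 and 125 CPM in DMSO, 41.9, 55.1 and 48.5 with XAV939 and 23.3, 25.4 and 39.3 with IWR-1. No drug-treated library of either gene reached the lowest DMSO library. *Fbn1* fell by 0.72 (SE 0.15) with XAV939 and by 0.78 (SE 0.15) with IWR-1 on the log2 scale (edgeR, Benjamini-Hochberg adjusted p = 0.00801 and 0.00203). *Fbn2* fell by 1.24 (SE 0.19) and by 1.96 (SE 0.19) on the same scale (edgeR adjusted p = 0.00152 and 2.72e-05). With siTnks/2 the groups overlapped for both genes. *Fbn1* was at 307, 249.8 and 327 CPM in siCtrl and 279, 219.6 and 306 in siTnks/2 (log2 fold change -0.14, 95% interval -0.48 to 0.21). *Fbn2* was at 57.4, 40.6 and 46.8 CPM against 44.5, 21.4 and 48.7 (-0.34, -1.03 to 0.36), and siTnks/2 replicate 2 was its lowest library there.

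*Lox* and *Loxl2* encode copper-dependent amine oxidases that start the cross-linking of collagen and elastin. *Lox* (chr18:52516067-52529867, minus strand) was at 5242, 4122 and 5015 CPM in DMSO, 2042, 1438 and 2189.9 with XAV939 and 1025, 821 and 1242 with IWR-1. The 3 groups did not overlap, and the IWR-1 libraries were the lowest. *Lox* fell by 1.34 (SE 0.20) with XAV939 and by 2.22 (SE 0.21) with IWR-1 on the log2 scale (edgeR, Benjamini-Hochberg adjusted p = 0.00146 and 2.03e-05). *Loxl2* (chr14:69609068-69695834, plus strand) was at 1443, 1113 and 1247 CPM in DMSO, 755, 654 and 665 with XAV939 and 808, 717 and 739 with IWR-1. It fell by 0.87 (SE 0.13) and by 0.75 (SE 0.13) on the log2 scale (edgeR adjusted p = 0.00123 and 0.000904). In the siRNA set *Lox* was at 1224, 977 and 1361 CPM in siCtrl and 1048, 580.3 and 1206 in siTnks/2, and *Loxl2* at 681, 875 and 543 against 656, 760.3 and 606. The groups overlapped for both, with a log2 fold change of -0.33 (95% interval -0.96 to 0.30) for *Lox* and -0.05 (-0.47 to 0.37) for *Loxl2*.

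**Figure D3:**
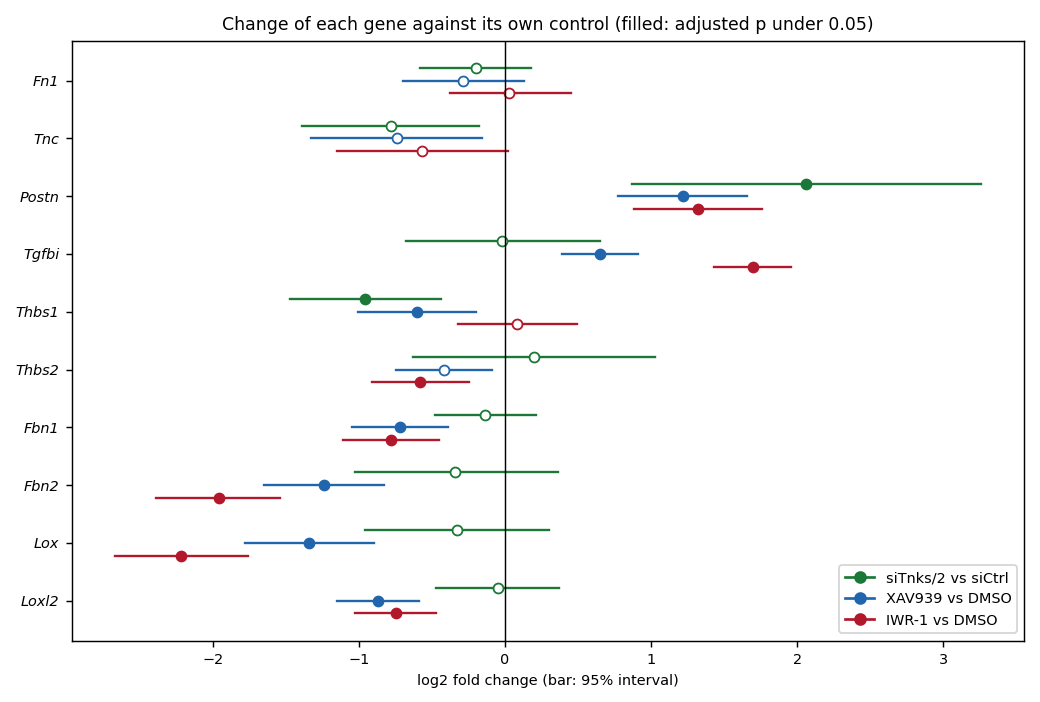
Log2 fold change of each of the 10 genes with siTnks/2 against siCtrl (green), XAV939 against DMSO (blue) and IWR-1 against DMSO (red). Bars are 95% intervals, and filled points passed edgeR's test without the replicate block at an adjusted p under 0.05. Postn is filled and positive in all 3, Tgfbi in both drugs, and Fbn1, Fbn2, Lox and Loxl2 are filled and negative in both drugs but not with siTnks/2.

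By count, 1 of the 10 genes was called higher and 1 lower with siTnks/2, against 10.4% and 7.61% of the 13672 genes tested, so the share of 10 genes called was near that background in either direction. With the replicate number as a block it was 2 higher and 2 lower, against 18.1% and 16.5% of all genes. With XAV939, 2 were called higher and 5 lower, against 7.57% and 9.85% of 13873 genes tested. With IWR-1, 2 were called higher and 5 lower, against 16.2% and 20.2% of the genes tested. With the replicate block, *Tnc* and *Thbs2* were also called lower with XAV939, and *Tnc* with IWR-1. The block called 16.0% of all genes higher and 17.4% lower with XAV939, and 22.2% and 25.3% with IWR-1. The median log2 fold change of the 10 genes was -0.17 with siTnks/2, -0.66 with XAV939 and -0.57 with IWR-1, and that of all genes 0.00, 0.02 and 0.01. The 10 genes were chosen with earlier results of these data known, so these counts and medians are a description and not a test. The drug comparisons share the 3 DMSO libraries, so their values are given side by side and their overlap is not read as separate evidence. Under upper-quartile scaling the genes called with XAV939 split into 1338 higher and 1174 lower, where the main scaling gave 1050 and 1366.

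IWR-1 and XAV939 were compared directly, at the same dose and time. The contrast is between their means and does not use the DMSO mean, although the DMSO libraries entered the fit that estimates the spread. IWR-1 libraries were above all XAV939 libraries for *Tgfbi* and *Thbs1* and below them for *Fbn2* and *Lox*. *Tgfbi* was higher by a log2 fold change of 1.05 (SE 0.12) and *Thbs1* by 0.69 (SE 0.18), and both passed the edgeR quasi-likelihood test (Benjamini-Hochberg adjusted p = 0.000335 and 0.0265). *Fbn2* and *Lox* were lower with IWR-1, by a log2 fold change of -0.72 (SE 0.19) and -0.88 (SE 0.20) (edgeR adjusted p = 0.0224 and 0.012). Thus 2 of the 10 genes were called higher and 2 lower, against 7.37% and 10.2% of all genes tested. For the other 6 genes the groups overlapped and the test was not passed. The 95% interval of the difference was -0.32 to 0.54 for *Postn*, -0.15 to 0.40 for *Loxl2*, -0.39 to 0.27 for *Fbn1*, -0.49 to 0.17 for *Thbs2*, -0.10 to 0.74 for *Fn1* and -0.40 to 0.76 for *Tnc*. Leaving out IWR-1 replicate 1 or IWR-1 replicate 2 left 1 gene called, *Tgfbi*, and leaving out XAV939 replicate 3 left 2, *Tgfbi* and *Lox*.

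Whether the knockdown and drug effects themselves differed was tested with an interaction term over all 15 libraries. The knockdown effect was above the XAV939 effect for *Loxl2* by 0.84 (SE 0.22) on the log2 scale, the 1 call among the 10 genes (edgeR, Benjamini-Hochberg adjusted p = 0.0219), where 8.07% of 14271 genes were called higher and 5.4% lower. Against IWR-1, 4 genes were called higher and 2 lower, where 13.9% and 10.5% of genes were. The differences were 1.90 for *Lox*, 1.63 for *Fbn2*, 0.71 for *Loxl2* and 0.65 for *Fbn1*, and -1.70 for *Tgfbi* and -1.03 for *Thbs1*. *Postn* did not pass the test against either drug, with a 95% interval of -0.26 to 1.98 for XAV939 and -0.37 to 1.87 for IWR-1. With the replicate block, 7 genes passed against XAV939 (6 higher, 1 lower), where 15.4% of all genes were then called higher and 12.7% lower. Against IWR-1, 8 passed (6 higher, 2 lower), where 19.3% and 17.0% were. *Postn* was among them in both (0.85, adjusted p = 0.00534, and 0.74, adjusted p = 0.00749, edgeR). The sets differ in table and in delivery of the treatment, and the time after transfection is not given, so these cannot be told apart from the treatment itself.

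Genes that work with these proteins are described by counts, with values for the strongest calls. Over all genes tested, 10.4% were called higher and 7.61% lower with siTnks/2. These shares were 7.57% and 9.85% with XAV939, and 16.2% and 20.2% with IWR-1. Several of the list counts are near these shares. Among 15 elastic fibre and microfibril partners, 3 rose and 1 fell with siTnks/2. In the drug set, 14 were tested, of which 2 rose and 3 fell with XAV939 and 3 rose and 7 fell with IWR-1. *Eln*, which encodes elastin, rose in all 3 comparisons (log2 fold change 1.79, 1.55 and 2.39; edgeR, Benjamini-Hochberg adjusted p = 0.00298, 0.0203 and 0.000757). *Fbln2*, an elastic-fibre-associated fibulin, fell by 1.03 with XAV939 and by 1.51 with IWR-1 on the log2 scale. Its log2 fold change with siTnks/2 was -1.10, which did not pass the test (edgeR adjusted p = 0.129). *Ltbp1*, which binds latent TGF-beta to the matrix, fell by 1.39 with siTnks/2, by 0.97 with XAV939 and by 1.33 with IWR-1. Of 15 other lysyl oxidases and processing enzymes tested, 3 rose with siTnks/2, 4 rose and 2 fell with XAV939, and 5 rose and 5 fell with IWR-1. *Pcolce2*, an enhancer of procollagen processing, rose by 0.96, 1.34 and 2.78 on the log2 scale, and *Loxl4*, a relative of *Lox* and *Loxl2*, rose by 0.66 with XAV939 and by 2.58 with IWR-1, and its log2 fold change with siTnks/2 was -0.53 (edgeR adjusted p = 0.0715).

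Among 18 other matricellular genes tested, 7 rose and 1 fell with siTnks/2, 2 rose and 4 fell with XAV939, and 5 rose and 6 fell with IWR-1. The shares of all genes called are those given for the lists above. *Ccn1*, a matricellular protein that binds integrins, fell in all 3 comparisons, by 1.37, 1.82 and 1.08 on the log2 scale (edgeR, Benjamini-Hochberg adjusted p = 0.00898, 3.51e-05 and 0.00011). *Thbs3*, a thrombospondin gene related to *Thbs1* and *Thbs2*, rose by 0.49 with siTnks/2, 1.24 with XAV939 and 1.43 with IWR-1 on the log2 scale. Of the receptors of these proteins, 3 of 14 rose and 2 fell with siTnks/2, 2 of 13 fell with XAV939, and 6 fell with IWR-1. *Itga8*, an integrin subunit for fibronectin and tenascin-C, fell in all 3, by 0.77, 0.92 and 2.23 on the log2 scale. Of 12 TGF-beta ligands, receptors and feedback genes, 2 rose and 2 fell with siTnks/2, 4 fell with XAV939, and 9 fell with IWR-1. With either drug, 0 genes of these receptor and TGF-beta lists were higher by edgeR, also 0 at an unadjusted p under 0.05, and 0 by DESeq2. Over all genes, edgeR called 7.57% higher with XAV939 and 16.2% with IWR-1, and these lists are short.

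Dedifferentiation markers and chondrocyte markers were read beside these genes. Of all genes tested, 10.4% were called higher and 7.61% lower with siTnks/2. With XAV939 the shares were 7.57% and 9.85%, and with IWR-1 16.2% and 20.2%. Of 10 fibroblast-type matrix and dedifferentiation markers, 0 were called in either direction with siTnks/2 by edgeR (2 lower at an unadjusted p under 0.05, and 1 lower by DESeq2), 5 fell with XAV939 and 6 fell with IWR-1, and *Col1a1* fell by 1.16 and by 1.39 on the log2 scale. Their summed level was 17635 to 23788 CPM in DMSO, 9974 to 12744 with XAV939 and 9318 to 13692 with IWR-1. In the siRNA set it was 16521, 11911 and 17464 CPM in siCtrl and 12525, 5853 and 14363 in siTnks/2. Each siTnks/2 library was below the siCtrl library of its number. The median log2 fold change of these markers was -0.50 with siTnks/2, -0.83 with XAV939 and -0.86 with IWR-1. Of 12 chondrocyte markers, 6 rose with siTnks/2, 6 with XAV939 and 12 with IWR-1, with a median log2 fold change of 0.66, 0.75 and 2.01. Of the bone markers, 2 of 8 were called higher with siTnks/2, 3 of 7 with XAV939 and 4 of 7 with IWR-1. Of 8 tendon and synovial markers, 4 were called lower with each drug, *Gdf5* among them (log2 fold change -1.75 and -1.77), where *Gdf5* rose by 1.42 with siTnks/2. Their summed level was 799 to 1480.3 CPM in DMSO, 494 to 1452 with XAV939 and 413 to 1056 with IWR-1. With IWR-1, 3 of 5 leukocyte markers tested were called lower and 1, *Laptm5*, higher (log2 fold change 2.72, edgeR adjusted p = 7.84e-06). *Laptm5* was also called higher with XAV939 (1.18, edgeR adjusted p = 0.00423) and with siTnks/2 (1.86, edgeR adjusted p = 0.00502). *Cd14* was called lower with IWR-1 (-1.61, edgeR adjusted p = 3.51e-05) and with siTnks/2 (-0.58, edgeR adjusted p = 0.0404). With XAV939 *Cd14* was not called (-0.41, edgeR adjusted p = 0.099). Of the endothelial markers, 2 of 2 tested were called lower with IWR-1. Summed levels with IWR-1 were 21.6 to 23.7 CPM for leukocyte and 0.835 to 0.87 for endothelial markers. In DMSO they were 33.3 to 42.3 and 1.72 to 3.14 CPM. In the siRNA set the 12 leukocyte markers summed to 18.7 to 20.9 CPM in siCtrl and 37.9 to 60.4 in siTnks/2, 30.7 to 53.8 CPM of it from *Laptm5*, while *Ptprc* stayed at 0.111 CPM or less. The part of these cell-type differences in the changes of the 10 genes was not tested. Without siTnks/2 replicate 2, the library with raised endothelial markers, *Postn* and *Thbs1* still passed the test (log2 fold change 2.40 and -0.76; edgeR adjusted p = 0.00566 and 0.0116), and *Tnc* joined them (-0.53, adjusted p = 0.0281).

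**Figure D4:**
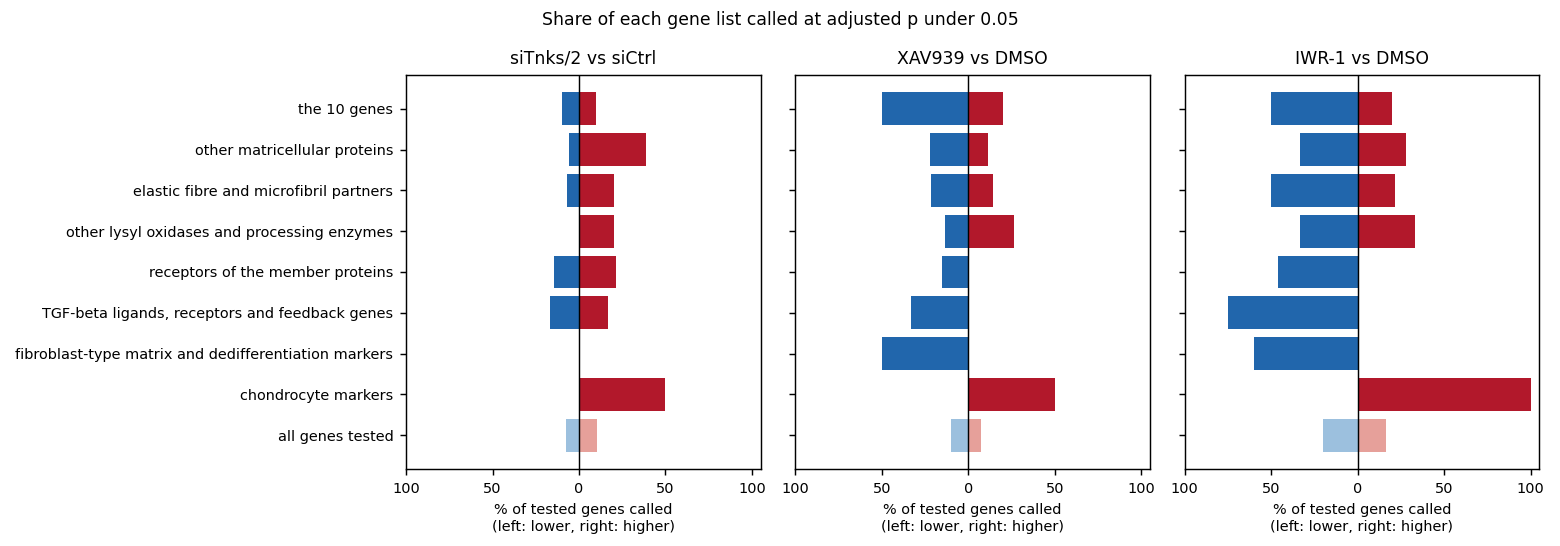
Share of tested genes called higher (red, right) or lower (blue, left) at an adjusted p under 0.05 in each list and each comparison, with all genes tested in paler bars. Calls are those without the replicate block. With each drug 5 of the 10 genes are called lower, and all 12 chondrocyte markers are called higher with IWR-1.

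As a description of likeness, Pearson's r was taken over the 15 libraries on log2 CPM from which the mean of the set's own control group had been subtracted. It was highest for *Lox* with *Axin2* (0.995), *Mme* (0.986) and *Pcyox1* (0.983) among 13342 genes tested in both sets. *Fbn2* was most like *Ptpn13* (0.984), *Fbn1* most like *Dag1* (0.981), and *Tgfbi* most like *Arv1* (0.971), *Ttll3* (0.968) and *Sox9* (0.967). Among the 10 genes themselves, *Lox* and *Fbn2* had an r of 0.964, and *Tgfbi* was opposed to both, at -0.935 with *Lox* and -0.909 with *Fbn2*. *Thbs1* was most like *Ajuba* (0.934), *Postn* most like *Bglap* (0.926) and *Fn1* most like *Zfp568* (0.916). The libraries form 5 groups, so these values carry the group means as well as the spread between libraries, and none is a test. Of the 10 genes, 7 (*Fbn1*, *Fbn2*, *Fn1*, *Lox*, *Loxl2*, *Thbs1* and *Tnc*) have an exon overlapping a gene on the opposite strand in the GENCODE M21 annotation, and whether the counting used strand is not given in the sources used here.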

How the data were processed

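Primary articular chondrocytes of 5 groups with 3 libraries each were profiled by RNA-seq of TruSeq Stranded mRNA libraries. The deposited values are raw counts per gene made by the authors, in 2 tables of 24134 Entrez gene IDs each, with no normalization. The submitters' processing notes name Trimmomatic 0.32, TopHat2 2.0.13, HTSeq 0.6.1p1 and mm10; annotation and strand setting are not given in the sources used here. Symbols were found for 24051 IDs and not for 83.

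Counts were filtered with filterByExpr, scaled by TMM and tested with edgeR 4.0.16 (R 4.3.3) quasi-likelihood F tests, Benjamini-Hochberg adjusted over all genes, called at 0.05. The siRNA table was fitted over 6 libraries, the drug table over 9, and the interaction over 15. Intervals cover 95%. Fold changes used edgeR's default prior count, and a prior count of 2 went into the log2 CPM of the pairing and likeness checks. Reads carry no molecular identifiers, so precision refers to the spread between libraries. Scripts were tested on simulated data. For siTnks/2 against siCtrl, 75% of 2-fold and 94.9% of 4-fold changes were recovered, and 7.65% of calls were false. For IWR-1 against DMSO these were 83%, 97% and 9.09%. Both false shares are above the threshold of 0.05, so calls close to it are less certain. DESeq2 1.42.0, other scalings, filters, a replicate block and leaving out each library were alternatives.

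The pairing was checked as the correlation of same-numbered libraries after removing group means. It was 0.143 to 0.553 in 9 drug-set pairs and 0.424 to 0.519 in 3 siRNA-set pairs, all above 0.1, so the replicate numbers in the labels were taken to pair the samples. The main tests did not use this pairing, and the fits with the replicate block did. Where calls of the 10 genes differ between them, both results or their counts are given. Different numbers reached 0.318 and 0.0972. The study calls the 3 libraries of a group biological replicates, and how many mice gave each culture is not stated. The members and lists were chosen with earlier results of these data known. Genes that may be named are the 10 members, *Tnks* and *Tnks2*, and, in each list and comparison with a control, the 2 lowest adjusted p-values under 0.05 in each direction, plus the 3 most alike per member; *Ptprc* was chosen after its values were seen. The text gives a subset of the genes this rule allows, and an item that it covers is not reported.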

Additional observations from a re-analysis of the deposited data

Results flagged for a closer look

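Given here are differences between the knockdown effect and a drug effect that passed an interaction test without the replicate block (edgeR, Benjamini-Hochberg adjusted). They are knockdown minus drug on the log2 scale. With the block, more genes passed against each drug, *Postn* among them, and their counts are in the Results. Against XAV939 the difference was 0.84 for *Loxl2* (SE 0.22, adjusted p = 0.0219), where *Loxl2* fell with XAV939 and its knockdown value was -0.05. Against IWR-1 it was -1.70 for *Tgfbi* (adjusted p = 0.00113) and -1.03 for *Thbs1* (adjusted p = 0.0202). *Tgfbi* rose by 1.70 with IWR-1 and *Thbs1* was at 0.08 there, against a fall of *Thbs1* with siTnks/2. It was 0.65 for *Fbn1* (adjusted p = 0.0458), 1.63 for *Fbn2* (adjusted p = 0.00439), 1.90 for *Lox* (adjusted p = 0.00118) and 0.71 for *Loxl2* (adjusted p = 0.0296), 4 genes that fell with IWR-1 and whose knockdown log2 fold changes were -0.14, -0.34, -0.33 and -0.05. Set and delivery differ between these comparisons, the time after transfection is not given, and these cannot be told apart from the treatment.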

How the results depend on the processing

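Of 660 values of single genes under alternatives, 595 kept direction and side of the threshold, 22 passed it newly, 30 lost it and 13 changed sign. With the replicate block, the genes called among the 10 numbered 4 with siTnks/2 (2 without it) and 7 for the difference between the knockdown and XAV939 effects (1 without it); *Tnc*, *Thbs2* and the differences of the effects changed their calls under it, and the block changed no other call. Leaving out 1 library gave 0 to 3 genes called with siTnks/2, 6 to 8 with XAV939, 7 to 8 with IWR-1 and 1 to 4 for IWR-1 against XAV939. The siTnks/2 count was 0 without siCtrl replicate 1, 2 or 3 or siTnks/2 replicate 1, where *Postn* was at 1.75 to 2.51 and *Thbs1* at -1 to -0.92; without siTnks/2 replicate 3 *Postn* was lost (1.71, adjusted p = 0.0722). For IWR-1 against XAV939 the count was 1 without IWR-1 replicate 1 or 2 and 2 without XAV939 replicate 3. The XAV939 call of *Thbs1* was also lost under upper-quartile scaling (-0.55, adjusted p = 0.0639) and with only 2 groups fitted (-0.62, 0.0828), and that of *Fbn1* in the difference from IWR-1 under upper-quartile scaling (0.61, 0.0521). DESeq2 called 3, 9 and 7 of the 10 genes with siTnks/2, XAV939 and IWR-1, and 3124, 2896 and 5308 of all genes. The cause was not tested.

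Signs changed for uncalled values when a library was left out: over these fits, the log2 fold change with siTnks/2 ran from -0.28 to 0.30 for *Tgfbi*, -0.07 to 0.47 for *Thbs2* and -0.20 to 0.14 for *Loxl2*, that with IWR-1 from -0.04 to 0.19 for *Thbs1* and -0.09 to 0.14 for *Fn1*, and that of IWR-1 against XAV939 from -0.17 to 0.03 for *Fbn1*. Over all genes, the block gave 4727 calls with siTnks/2 (2459 without), 4630 with XAV939 (2416), 4258 for IWR-1 against XAV939 (2442) and 4018 for the knockdown against the XAV939 effect (1922). Leaving out 1 library gave 608 to 2868 calls with siTnks/2, and 1343 to 3044 for IWR-1 against XAV939, and XAV939 fell to 1322 without DMSO replicate 1 and 1569 with only 2 groups fitted. Upper-quartile scaling split the knockdown against XAV939 calls 907 higher to 1011 lower, from 1152 to 770. Depth limits *Postn* most, at 1.77 CPM in its lowest library.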
